A study of Homo sapiens with 12 samples.

Results

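The YAP/TEAD genes are 10 of the 63677 genes in the deposited count table, chosen by name as the coactivators YAP1 and WWTR1 (the gene of TAZ), the transcription factors TEAD1 and TEAD4, and the genes CCN1, CCN2, ANKRD1, AMOTL2, AJUBA and THBS1, most of which are known targets of the complex. CCN1 and CCN2 are also called CYR61 and CTGF. All 10 were found in the table and all 10 passed the filter on low counts. YAP1 was of interest because it has been linked to RBM3, the cold-inducible RNA-binding protein that was knocked down.

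YAP1 and TAZ do not bind DNA themselves. They enter the nucleus and bind the TEAD factors, which recognise a short motif in promoters and enhancers of genes for matrix, adhesion and growth. The kinases of the Hippo pathway (STK3 and STK4, then LATS1 and LATS2) phosphorylate YAP1 and TAZ and so keep them in the cytoplasm, and cell density, cell shape and matrix stiffness set the balance. The complex is active in many carcinomas, and in mouse models of pancreatic carcinoma it is known to support tumour growth. Because YAP1 and TAZ are controlled mainly as proteins, their transcript levels are no measure of their activity.

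RNA was sequenced from PANC-1 and MIA PaCa-2, a pair of established human pancreatic carcinoma cell lines, given either a mixture of 2 siRNAs against RBM3 or a negative control siRNA. The 4 groups of 3 libraries were PANC-1 with RBM3 siRNA (replicates 1, 2 and 3), PANC-1 with control siRNA (replicates 1, 2 and 4), MIA PaCa-2 with RBM3 siRNA (replicates 1, 2 and 5) and MIA PaCa-2 with control siRNA (replicates 1, 2 and 4). All received 25 nM siRNA with lipofectamine in serum-free medium for 4.5 h and recovered overnight in full medium, after 72 h of growth. The medium of each line is not stated, so line and medium cannot be told apart, and the RNA is labelled both as total and as cytoplasmic. The labels do not say whether replicates were grown separately, and p-values therefore measure the spread between these libraries, which may be technical.

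Total counts ran from 14217185 to 39652502 per library, and the limit that a count of 0 allows (3 counts) was between 0.0757 and 0.211 CPM (counts scaled to library size). Levels are given as CPM after TMM scaling, which corrects library size for composition. RBM3 was at 96.5, 195 and 83.0 CPM in the PANC-1 RBM3 siRNA libraries 1, 2 and 3, against 567, 426 and 436 CPM in PANC-1 control libraries. In the MIA PaCa-2 libraries it stood at 44.4, 37.4 and 61.9 CPM under RBM3 siRNA, against 249.8, 277 and 207 CPM with control siRNA, so the target was lower in every siRNA library of its line. Its log2 fold change was -1.93 in PANC-1 (SE 0.30, edgeR adjusted p = 0.516 over all genes) and -2.35 in MIA PaCa-2 (SE 0.31, edgeR adjusted p = 0.0426), and the PANC-1 value did not pass the test. Both calls turned on single libraries: with each library left out in turn the edgeR adjusted p ran from 0.00515 to 1 in PANC-1, where it passed only without RBM3 siRNA replicate 2, and from 0.0012 to 0.548 in MIA PaCa-2, where it passed only without PANC-1 RBM3 siRNA replicate 2 or 3. DESeq2 called RBM3 in both lines, with adjusted p of 1.75e-05 in PANC-1 and 5.29e-09 in MIA PaCa-2. The epithelial keratin KRT8 was between 802 and 3681 CPM in all libraries, while the epithelial adhesion genes EPCAM and CDH1 were at most 0.0952 and 0.832 CPM in MIA PaCa-2. Among fibroblast markers, COL1A2 was between 899 and 1814 CPM in MIA PaCa-2 and COL1A1 between 61.8 and 232 CPM in PANC-1. The other fibroblast markers DCN, LUM and PDGFRB were at most 0.0694, 0.0856 and 1.38 CPM in any library. Leukocyte markers summed to between 0.117 and 2.53 CPM. Of 3 endothelial markers PECAM1 was at 0 in all libraries, while VWF and CDH5 were detected; their sum ran from 0.0606 to 0.897 CPM in PANC-1 RBM3 siRNA libraries, from 0 to 0.257 CPM in PANC-1 control, from 0.714 to 1.05 CPM in MIA PaCa-2 RBM3 siRNA and from 0.393 to 8.04 CPM in MIA PaCa-2 control, where CDH5 reached 7.57 CPM in 1 library. Their part in the results was not tested. PANC-1 RBM3 siRNA replicate 3 stood apart: over 26 genes of MIA PaCa-2 that were nearly silent in the other PANC-1 libraries, it held a median of 39.0% of the MIA PaCa-2 level (interquartile range 34.8 to 48.6%), against 0.196 to 0.494% in the other 5. These genes were chosen at under 2 CPM in the other 5 and a mean of at least 50 CPM in MIA PaCa-2, so the low values were set in advance. Replicate 3 had 441 CPM of the collagen gene COL1A2 and 682 CPM of the aldehyde dehydrogenase gene ALDH1A1. Results that use this library are therefore also given without it where they change.

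The CCN genes separated the lines most clearly. CCN1, a secreted matrix-associated protein, was at 968, 957 and 876 CPM in PANC-1 control libraries 1, 2 and 4, against 64.7, 109.7 and 142.7 CPM in MIA PaCa-2 control libraries. CCN2, its close relative and the most used reporter of YAP/TEAD activity, was at 532, 193 and 151 CPM in PANC-1 control libraries, against 0.357, 0.458 and 0.757 CPM in MIA PaCa-2 control libraries. Both genes were abundant in PANC-1, and CCN2 was close to the detection limit in every MIA PaCa-2 library. By edgeR's quasi-likelihood test over 17862 genes, the log2 fold change of CCN1 was 3.14 (SE 0.26, adjusted p = 1.77e-06) and that of CCN2 was 9.21 (SE 0.85, adjusted p = 4.37e-06). Pooled over the 3 libraries a group, CCN2 had 18504 counts in PANC-1 and 34 counts in MIA PaCa-2, a depth-corrected ratio of 669 (95% interval 479 to 966, counting error only).

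THBS1 and ANKRD1 were higher in PANC-1 too, at lower levels. THBS1, a secreted matrix glycoprotein, was at 113, 26.6 and 24.4 CPM in PANC-1 control libraries, against 0.0714, 0 and 0.0631 CPM in MIA PaCa-2 control libraries. ANKRD1, an ankyrin-repeat protein of nucleus and muscle sarcomere, was at 1.11, 0.277 and 0.414 CPM in PANC-1 control libraries, against 0.0952, 0.0654 and 0 CPM in MIA PaCa-2 control libraries. The groups did not overlap for either gene, and the MIA PaCa-2 values rested on 4 counts of THBS1 and 5 counts of ANKRD1 in all. The pooled ratio was 1092 for THBS1 (95% interval 426 to 4009) and 9.59 for ANKRD1 (95% interval 3.78 to 31.2). The edgeR log2 fold change was 9.87 for THBS1 (SE 1.45, adjusted p = 0.000184) and 3.17 for ANKRD1 (SE 1.11, adjusted p = 0.0308). The ANKRD1 call was lost without PANC-1 control replicate 1 or without any 1 MIA PaCa-2 control library, with edgeR adjusted p between 0.0633 and 0.145. Without PANC-1 control replicate 1 the log2 fold change was 8.77 for THBS1, 8.45 for CCN2 and 2.36 for ANKRD1; without MIA PaCa-2 control replicate 1 it was 10.5 for THBS1 and 4.08 for ANKRD1.

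The windows of 250 bases before the transcription start of CCN2, ANKRD1 and THBS1 are printed because they are known targets called higher in PANC-1 whose windows hold the TEAD motif. They come from RefSeq (GRCh38.p14) and are written 5′ to 3′ on the gene's own strand, with each copy of the hexamer GGAATG or its complement CATTCC in capitals. CCN2 (chr6:131951373-131951622, minus strand) held 3 copies, ANKRD1 (chr10:90921088-90921337, minus strand) held 2 and THBS1 (chr15:39580829-39581078, plus strand) held 1.
CCN2: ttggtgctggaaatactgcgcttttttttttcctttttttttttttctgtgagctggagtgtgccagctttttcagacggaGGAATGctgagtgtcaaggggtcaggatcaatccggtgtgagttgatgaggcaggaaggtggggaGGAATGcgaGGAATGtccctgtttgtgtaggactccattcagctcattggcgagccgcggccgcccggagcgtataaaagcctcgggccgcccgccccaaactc
ANKRD1: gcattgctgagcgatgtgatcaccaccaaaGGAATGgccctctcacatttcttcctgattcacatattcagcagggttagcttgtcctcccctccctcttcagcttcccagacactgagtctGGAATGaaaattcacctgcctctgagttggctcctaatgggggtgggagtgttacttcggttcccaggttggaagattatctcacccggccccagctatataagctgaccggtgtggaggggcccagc
THBS1: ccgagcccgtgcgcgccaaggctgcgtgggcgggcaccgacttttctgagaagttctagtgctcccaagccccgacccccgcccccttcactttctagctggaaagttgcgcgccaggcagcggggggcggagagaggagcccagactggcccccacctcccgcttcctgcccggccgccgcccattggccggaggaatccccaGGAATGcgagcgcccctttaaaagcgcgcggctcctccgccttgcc
In CCN2 the motifs began 169, 104 and 95 bases before the start, with the last pair only a few bases apart. In ANKRD1 they began 220 and 128 bases before the start, and in THBS1 46 bases before it. Among 35116 windows of the same length in the RefSeq table, searched on both strands, 11.9% held at least 1 copy, 0.94% at least 2 and 0.0826% at least 3. In all, 7 of the 10 genes matched the table, with 10 windows. A copy was held by 6 of these windows, from 6 of the genes: besides the 3 above, YAP1 had 1 copy 162 bases before its start, and AMOTL2 and AJUBA each had 1 copy, 69 and 59 bases before the start, in 1 of their 2 windows. The 11.9% is likewise a share of windows. Most of the genes were chosen as known targets, and the difference was not tested. WWTR1 had no copy in either of its 2 windows, and CCN1, TEAD1 and TEAD4 were not matched. AMOTL2 is shown as the window with a copy on the opposite strand (chr3:134374448-134374697, minus strand).
AMOTL2: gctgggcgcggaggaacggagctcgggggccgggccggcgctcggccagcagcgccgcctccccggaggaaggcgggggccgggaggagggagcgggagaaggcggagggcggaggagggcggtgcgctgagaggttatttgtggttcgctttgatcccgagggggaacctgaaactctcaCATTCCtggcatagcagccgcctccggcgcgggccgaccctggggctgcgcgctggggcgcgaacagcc
These matches describe letters in a window, and binding by TEAD factors was not measured.

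Of the coactivators, YAP1 differed between the lines and WWTR1 did not pass the test. YAP1 was at 238, 313 and 256 CPM in PANC-1 control libraries, against 177, 144 and 169.7 CPM in MIA PaCa-2 control libraries, with no overlap. Its log2 fold change was 0.72 (SE 0.16, edgeR adjusted p = 0.00302). WWTR1 was at 531, 324 and 331 CPM in PANC-1 control libraries, against 460.4, 255 and 297 CPM in MIA PaCa-2 control libraries, and the groups overlapped. Its log2 fold change was 0.23 (SE 0.26, edgeR adjusted p = 0.483), and without PANC-1 control replicate 1 it was -0.04. Per kb of exon, the YAP1 level was 0.974 ± 0.350 times that of WWTR1 in PANC-1 control libraries and 0.676 ± 0.142 times in MIA PaCa-2 control libraries (SD, n = 3 each), and the ranges overlapped.

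Of the TEAD factors among the 10 genes, TEAD4 was called lower in PANC-1 and TEAD1 did not pass the test. TEAD4 was at 37.1, 46.3 and 41.9 CPM in PANC-1 control libraries, against 68.4, 76.6 and 83.1 CPM in MIA PaCa-2 control libraries. It was the only one of the 10 genes that was lower in PANC-1, with a log2 fold change of -0.86 (SE 0.16, edgeR adjusted p = 0.000871). TEAD1 was at 195, 145 and 128.0 CPM in PANC-1 control libraries, against 127.8, 80.0 and 121 CPM in MIA PaCa-2 control libraries. The TEAD1 groups met without overlap, and the log2 fold change of 0.51 (SE 0.35) had an edgeR adjusted p of 0.246.

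Beside the paralogues TEAD2 and TEAD3, TEAD4 had the largest share of TEAD transcripts per kb in MIA PaCa-2. TEAD4 made up 34.6 ± 2.07% of the 4 paralogues in PANC-1 control libraries and 44.2 ± 1.29% in MIA PaCa-2 control libraries (SD, n = 3 each). TEAD1 made up 29.5 ± 11.5% in PANC-1 control libraries and 14.1 ± 3.65% in MIA PaCa-2 control libraries (SD, n = 3 each). The wide TEAD1 spread in PANC-1 came from a share of 42.7% in control replicate 1, where TEAD2 made up 13.5% of the sum, against TEAD1 shares of 23.6% and 22.1% in control replicates 2 and 4. The summed level was 53.5 ± 8.08 CPM per kb in PANC-1 control libraries and 75.8 ± 7.11 CPM per kb in MIA PaCa-2 control libraries (SD, n = 3 each). Neither TEAD2 (log2 fold change -0.56, edgeR adjusted p = 0.298) nor TEAD3 (log2 fold change -0.91, edgeR adjusted p = 0.103) passed the test between the lines. The exon lengths are from an annotation of another build (GENCODE v29) than the counts, so shares per kb are approximate.

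**Figure D1:**
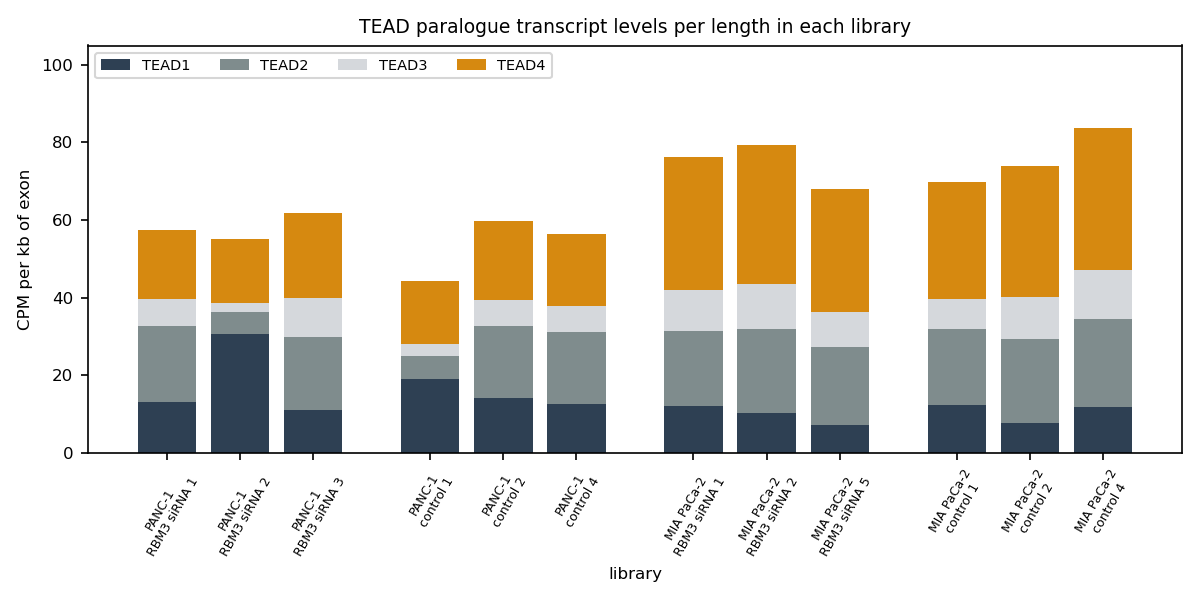
Stacked bars give the CPM per kb of exon of TEAD1, TEAD2, TEAD3 and TEAD4 in each of the 12 libraries, with PANC-1 left of MIA PaCa-2 and RBM3 siRNA left of control siRNA. The TEAD4 segment is shorter in all PANC-1 libraries, and in PANC-1 RBM3 siRNA replicate 2 and control replicate 1 TEAD1 makes up 55.3% and 42.7% of the bar.

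AMOTL2 and AJUBA were less clear. AMOTL2, a motin that binds YAP1 at cell junctions and is itself a YAP/TEAD target, was at 96.0, 62.2 and 56.2 CPM in PANC-1 control libraries, against 34.4, 37.8 and 52.0 CPM in MIA PaCa-2 control libraries. The groups did not overlap, with a log2 fold change of 0.79 (SE 0.38, edgeR adjusted p = 0.105). With each library left out in turn the edgeR adjusted p ran from 0.0132 to 0.322. It was 0.0456 without PANC-1 RBM3 siRNA replicate 3, which entered the shared estimate of spread. AJUBA, a LIM-domain scaffold that binds LATS kinases, was at 3.85, 2.08 and 4.19 CPM in PANC-1 control libraries, against 0.643, 2.23 and 1.64 CPM in MIA PaCa-2 control libraries. The AJUBA groups overlapped, and the log2 fold change was 1.22 (SE 0.57, edgeR adjusted p = 0.0916). AJUBA counts are uncertain, because AL132780.3, a gene that overlaps it on the same strand, had up to 4.36 CPM, as much as AJUBA itself. Genes on the strand opposite WWTR1, CCN2 and THBS1 reached at most 4.19, 2.29 and 2.65 CPM in any library, and without the strand setting their reads cannot be told apart from those of the 3 genes.

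Under control siRNA 5 of the 10 genes were called higher in PANC-1 (YAP1, CCN1, CCN2, ANKRD1 and THBS1) and 1 was called lower (TEAD4), while 4 did not pass. Of all genes tested, 50.8% were called in this comparison, 26% higher and 24.8% lower, so the share of calls among the 10 was near that of all genes. The 10 log2 fold changes had a median of 1.00, against 0.00 over all genes. The groups of libraries did not overlap for 8 of the 10 genes, against 61.5% of all genes.

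The line difference was measured a second time, in the libraries with RBM3 siRNA, which the first contrast did not use except for the shared spread. All 10 genes kept the sign they had under control siRNA, and the 6 genes called there were called again in the same direction. CCN1 was at 688, 827 and 611 CPM in PANC-1 RBM3 siRNA libraries 1, 2 and 3, against 102, 78.8 and 75.2 CPM in MIA PaCa-2 RBM3 siRNA libraries 1, 2 and 5 (log2 fold change 3.05, SE 0.26, edgeR adjusted p = 2.29e-06). CCN2 was at 99.4, 462 and 112 CPM in PANC-1, against 0.376, 0.476 and 0.584 CPM in MIA PaCa-2 under RBM3 siRNA, a pooled ratio of 480.4 (95% interval 347 to 686) and an edgeR adjusted p of 5.29e-06. THBS1 was at 28.6, 173 and 9.62 CPM in PANC-1, against 0.0752, 0 and 0 CPM in MIA PaCa-2, a pooled ratio of 2714 on only 2 MIA PaCa-2 counts (95% interval 751 to 22417) and an edgeR adjusted p of 0.000137. In each of these genes the lowest PANC-1 library lay above the highest MIA PaCa-2 library.

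YAP1 was at 283, 290.1 and 244 CPM in PANC-1 RBM3 siRNA libraries, against 156, 162 and 123 CPM in MIA PaCa-2 RBM3 siRNA libraries (log2 fold change 0.89, SE 0.16, edgeR adjusted p = 0.00114). TEAD4 was at 40.5, 37.6 and 49.96 CPM in PANC-1, against 77.6, 81.1 and 72.2 CPM in MIA PaCa-2 (log2 fold change -0.85, SE 0.16, edgeR adjusted p = 0.00133). ANKRD1 was at 0.152, 1.02 and 0.0619 CPM in PANC-1, against 0.0376, 0 and 0 CPM in MIA PaCa-2, with 1 count in all in MIA PaCa-2 and a pooled ratio of 31.7 (95% interval 5.37 to 1283). The lines did not overlap for any of these 3 genes, and ANKRD1 (edgeR log2 fold change 4.54, SE 1.40, adjusted p = 0.0203) rested on few counts in both.

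With RBM3 siRNA, 8 of the 10 genes were called between the lines, 7 higher and 1 lower, against 43.6% of all genes (24.2% higher and 19.3% lower). Groups of libraries did not overlap for 8 of the 10 genes, against 54.4% of all genes. The genes called here and not under control siRNA were AMOTL2 (log2 fold change 1.08, SE 0.39, edgeR adjusted p = 0.0383) and AJUBA (log2 fold change 1.81, SE 0.58, edgeR adjusted p = 0.0235). AMOTL2 was at 48.6, 120.2 and 34.0 CPM in PANC-1, against 32.3, 28.0 and 35.3 CPM in MIA PaCa-2, and the groups overlapped. AJUBA was at 3.36, 4.46 and 1.58 CPM in PANC-1, against 0.338, 1.13 and 1.23 CPM in MIA PaCa-2. The test of the difference between the contrasts called neither gene. Without PANC-1 RBM3 siRNA replicate 2 the count was 5, with ANKRD1, AMOTL2 and AJUBA lost (edgeR adjusted p = 0.14, 0.293 and 0.0763), and without replicate 3, the library with MIA PaCa-2 transcripts, it was 9, with TEAD1 gained (edgeR adjusted p = 0.0142). Without that replicate 2 the log2 fold change was 7.81 for CCN2, 9.26 for THBS1, 2.63 for ANKRD1 and 0.37 for AMOTL2. The AMOTL2 call was also lost without any 1 MIA PaCa-2 RBM3 siRNA library (edgeR adjusted p between 0.0624 and 0.114), that of ANKRD1 without MIA PaCa-2 RBM3 siRNA replicate 2 or 5 (0.0804 and 0.0525), and that of AJUBA without RBM3 siRNA replicate 1 of PANC-1 or of MIA PaCa-2 (0.0521 and 0.0742), the adjusted p in parentheses. Without MIA PaCa-2 RBM3 siRNA replicate 1, which held all counts of both genes in that group, the log2 fold change was 13.8 for THBS1 and 6.41 for ANKRD1, and without replicate 2 it was 10.5 and 3.92. WWTR1 at a log2 fold change of 0.60 (SE 0.26, edgeR adjusted p = 0.0768) and TEAD1 at 0.90 (SE 0.35, edgeR adjusted p = 0.0553) did not pass. The WWTR1 groups did not overlap here, at 438 CPM or more in PANC-1 and at most 384 CPM in MIA PaCa-2. Those of TEAD1 overlapped.

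**Figure D2:**
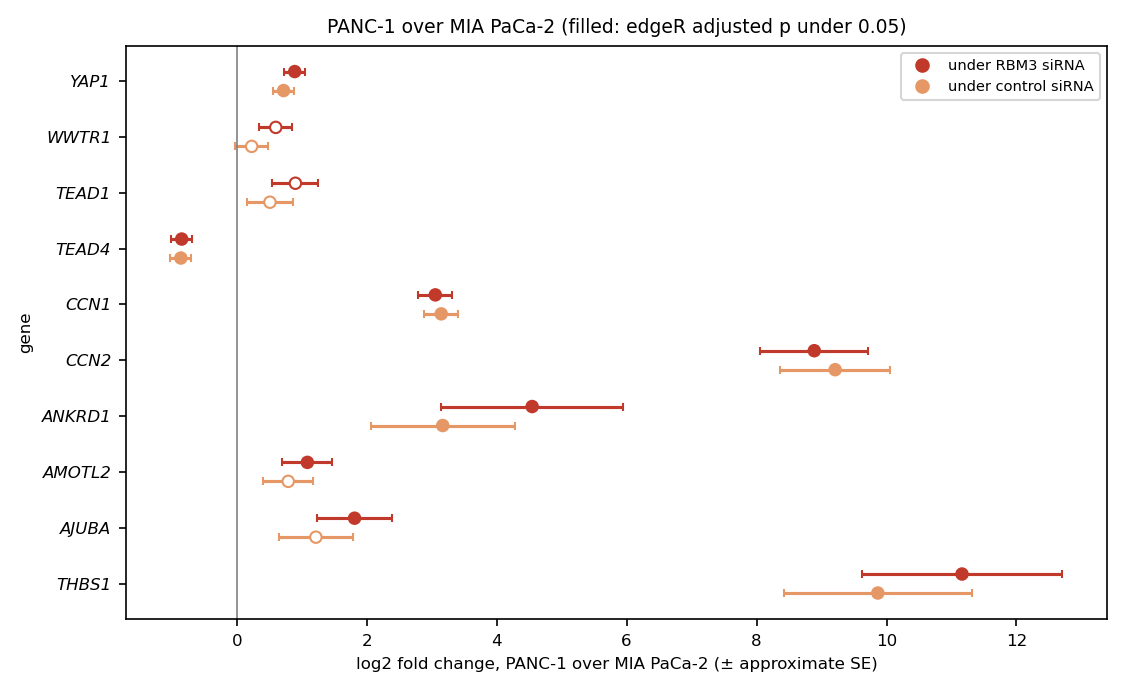
Points give the edgeR log2 fold change of each gene, PANC-1 over MIA PaCa-2, under RBM3 siRNA and under control siRNA, with bars of 1 approximate SE; filled points have an adjusted p under 0.05. TEAD4 is left of 0 at -0.85 and -0.86, and CCN2 and THBS1 lie farthest to the right.

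Levels of different genes can be set side by side per kb of exon. In PANC-1 control libraries CCN1 led at 380.5 ± 20.5 CPM per kb, followed by CCN2 at 125 ± 89.4, WWTR1 at 47.0 ± 13.9, YAP1 at 42.7 ± 6.25, TEAD4 at 18.4 ± 2.03, TEAD1 at 15.2 ± 3.38, AMOTL2 at 11.9 ± 3.59 and THBS1 at 5.96 ± 5.51 CPM per kb (SD, n = 3). AJUBA and ANKRD1 were last at 0.564 ± 0.189 and 0.304 ± 0.226 CPM per kb. In that order the mean ± SD of neighbours overlapped, except for CCN1 above CCN2 and YAP1 above TEAD4. In MIA PaCa-2 control libraries CCN1 at 43.1 ± 16.0, WWTR1 at 40.1 ± 12.9, TEAD4 at 33.5 ± 3.24 and YAP1 at 26.0 ± 2.75 CPM per kb stood close together (SD, n = 3), and CCN2 at 0.224 ± 0.0889 CPM per kb was level with AJUBA at 0.251 ± 0.134. CCN2 thus stood second of the 10 genes in PANC-1 and eighth in MIA PaCa-2.

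**Figure D3:**
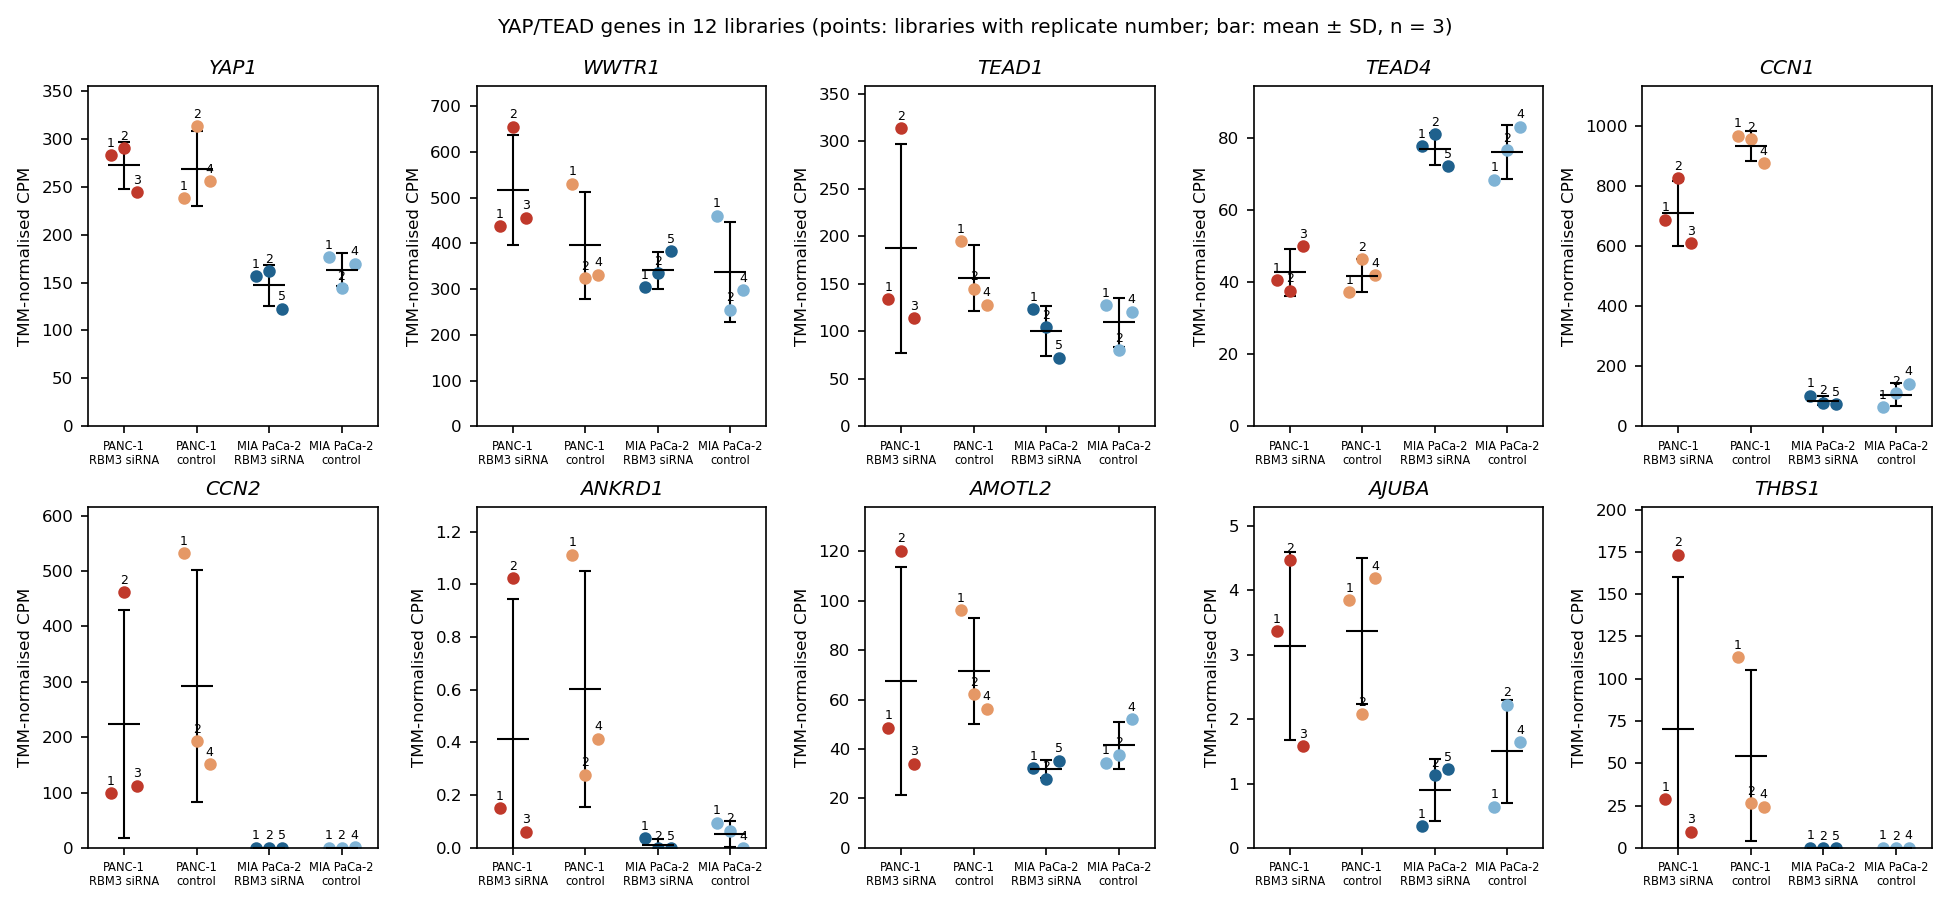
Points give the TMM-normalised CPM of each of the 10 genes in each library, marked with the replicate number, and bars give mean ± SD of 3 libraries, cut at 0 where the SD exceeds the mean. CCN1, CCN2 and THBS1 separate PANC-1 from MIA PaCa-2 under either siRNA, TEAD4 is lower in PANC-1, and replicate 2 of PANC-1 RBM3 siRNA and replicate 1 of PANC-1 control stand above the other PANC-1 libraries for 6 of the genes.

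The comparison the study was made for, RBM3 siRNA over control siRNA, called none of the 10 genes in either line. In edgeR 0% of all genes were called in PANC-1 and 0.0112% in MIA PaCa-2, which is 0 and 2 genes of 17862; at an unadjusted p under 0.05 there were 736 and 525 genes, none of them among the 10. DESeq2 and limma-voom also called none of the 10, though DESeq2 gave ANKRD1 no adjusted p in MIA PaCa-2. YAP1 stayed within its spread: it averaged 272 ± 24.6 CPM with RBM3 siRNA and 269 ± 39.4 CPM with control siRNA in PANC-1, and 147 ± 21.0 CPM with RBM3 siRNA and 163 ± 17.3 CPM with control siRNA in MIA PaCa-2 (SD, n = 3 each). Its log2 fold change was 0.02 (SE 0.16) in PANC-1 and -0.15 (SE 0.16) in MIA PaCa-2, and the edgeR adjusted p was 0.9997 and 1. With 3 libraries against 3, no exact permutation p can be smaller than 0.1.

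CCN1 was the one gene of the 10 whose siRNA and control libraries did not overlap in a line. In PANC-1 it averaged 709 ± 109.6 CPM with RBM3 siRNA and 934 ± 50.3 CPM with control siRNA (SD, n = 3 each), a log2 fold change of -0.40 (SE 0.24, edgeR adjusted p = 0.9997). Groups that do not overlap were found for 6.52% of all genes in PANC-1, 2.77% with the siRNA libraries lower. In MIA PaCa-2 CCN1 averaged 85.3 ± 14.6 CPM with RBM3 siRNA and 106 ± 39.2 CPM with control siRNA (SD, n = 3 each), with overlap and a log2 fold change of -0.31 (SE 0.24, edgeR adjusted p = 1). No other gene of the 10 separated the groups in MIA PaCa-2, where 8.04% of all genes did.

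The range of the 10 log2 fold changes describes these libraries and sets no limit on the effect of RBM3 siRNA. In PANC-1 the log2 fold changes ran from -0.58 for ANKRD1 (SE 0.85) to 0.38 for WWTR1 (SE 0.26), 5 of them positive and 5 negative, with a median of -0.03 against 0.03 over all genes. WWTR1 averaged 516 ± 120.4 CPM with RBM3 siRNA and 395 ± 117 CPM with control siRNA in PANC-1 (SD, n = 3 each). In MIA PaCa-2 they ran from -1.96 for ANKRD1 (SE 1.80, on 1 count with RBM3 siRNA and 5 with control siRNA) to 0.02 for TEAD4 (SE 0.16), 8 of them negative, with a median of -0.23 against 0.00 over all genes. The genes with the narrowest errors were YAP1 and TEAD4, and those with the widest were THBS1 and ANKRD1 in MIA PaCa-2, where almost no counts were present. The test of whether the responses of the lines differ called 0 of the 10 genes and 0% of all genes by edgeR. The unadjusted p was under 0.05 for 532 genes, but for none of the 10. DESeq2 called 3 genes, none of the 10. In bulk RNA, fewer cells with a transcript and less transcript per cell cannot be told apart.

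**Figure D4:**
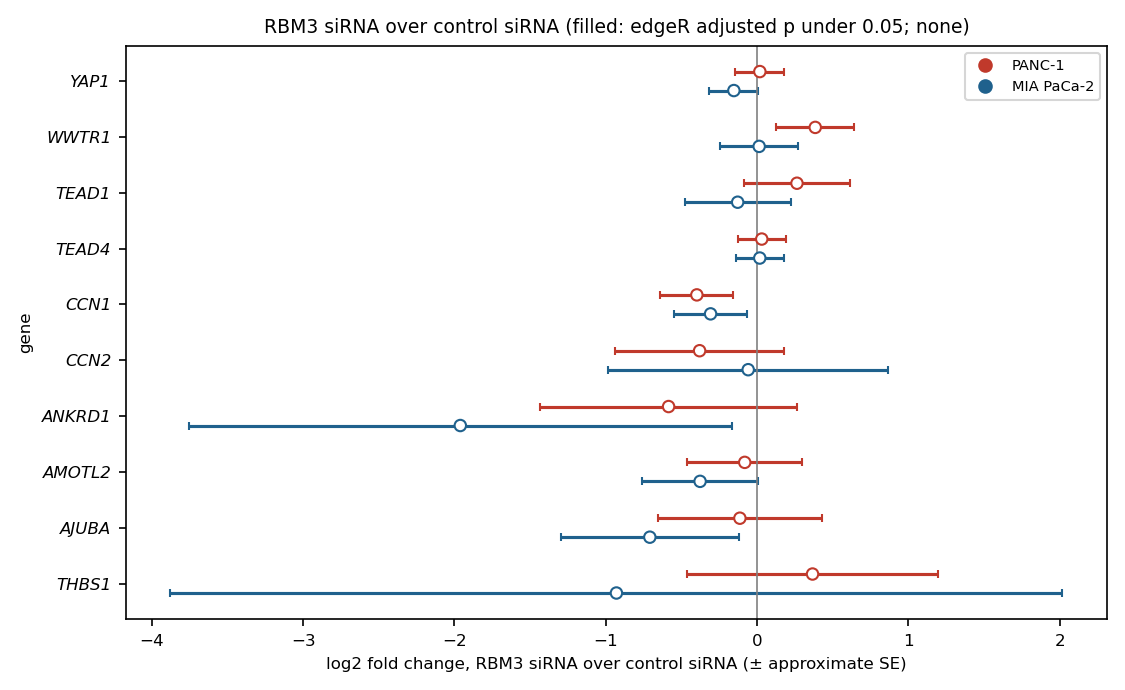
Points give the edgeR log2 fold change of each gene, RBM3 siRNA over control siRNA, in PANC-1 and in MIA PaCa-2, with bars of 1 approximate SE; all points are open because no adjusted p was under 0.05. YAP1 lies at 0.02 in PANC-1 and -0.15 in MIA PaCa-2, and the widest bar is that of THBS1 in MIA PaCa-2 (SE 2.95).

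Within PANC-1 the largest differences among libraries did not follow the siRNA. RBM3 siRNA replicate 2 and control replicate 1 both lay above the other 4 PANC-1 libraries for 6 of the 10 genes (WWTR1, TEAD1, CCN2, ANKRD1, AMOTL2 and THBS1), a pattern seen in 19.7% of all genes, and both lay below them for TEAD4, as for 21% of all genes. CCN2 was at 462 and 532 CPM in these libraries and between 99.4 and 193 CPM in the other 4. THBS1 was at 173 and 113 CPM in them and between 9.62 and 28.6 CPM in the others. TEAD1 was at 314 and 195 CPM in them and between 114 and 145 CPM in the others, whereas TEAD2 was at 17.4 and 17.8 CPM in them and between 55.4 and 58.8 CPM in the others. The pair had 33341322 and 23993638 counts in all, and the other 4 between 14217185 and 32564458. RBM3 itself was the highest of its group in each of them, at 195 and 567 CPM. CCN1, at 827 and 968 CPM in the pair, YAP1, at 290.1 and 238 CPM, and AJUBA, at 4.46 and 3.85 CPM, did not have both libraries above the other 4.

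The pair holds 1 library of each siRNA, so it widens the spread of both groups. With both left out, a setting chosen after the values were seen, none of the 10 genes was called for RBM3 siRNA in PANC-1 either, with log2 fold changes of -0.70 for CCN2 (edgeR adjusted p = 0.609), -0.52 for AMOTL2 (0.809) and -0.50 for CCN1 (0.942), the adjusted p in parentheses. The CCN2 value then rested on 99.4 and 112 CPM with RBM3 siRNA, against 193 and 151 CPM with control siRNA. With only RBM3 siRNA replicate 2 left out the CCN2 log2 fold change was -1.48 (edgeR adjusted p = 0.294), and with only control replicate 1 left out it was 0.38 (edgeR adjusted p = 0.984), so its sign turned on which of the 2 libraries was present. What sets these libraries apart was not tested.

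PANC-1 RBM3 siRNA replicate 3, the library with MIA PaCa-2 transcripts, was the lowest of the 6 PANC-1 libraries for TEAD1, CCN1, ANKRD1, AMOTL2, AJUBA and THBS1, 6 of the 10 genes, against 25.5% of all genes. It was the highest for TEAD4, as for 28.8% of all genes. CCN2, at 112 CPM, and WWTR1, at 456 CPM, were not the lowest there. In this library THBS1 was at 9.62 CPM, AMOTL2 at 34.0 CPM and TEAD4 at 49.96 CPM, between the 37.1 to 46.3 CPM of the other PANC-1 libraries and the 68.4 CPM or more of MIA PaCa-2. Without it the CCN1 log2 fold change for RBM3 siRNA in PANC-1 was -0.32, the values of AMOTL2, AJUBA and TEAD4 turned sign to 0.23, 0.19 and -0.11, and none of the 10 genes was called. The part of this library in the values was not tested further.

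**Figure D5:**
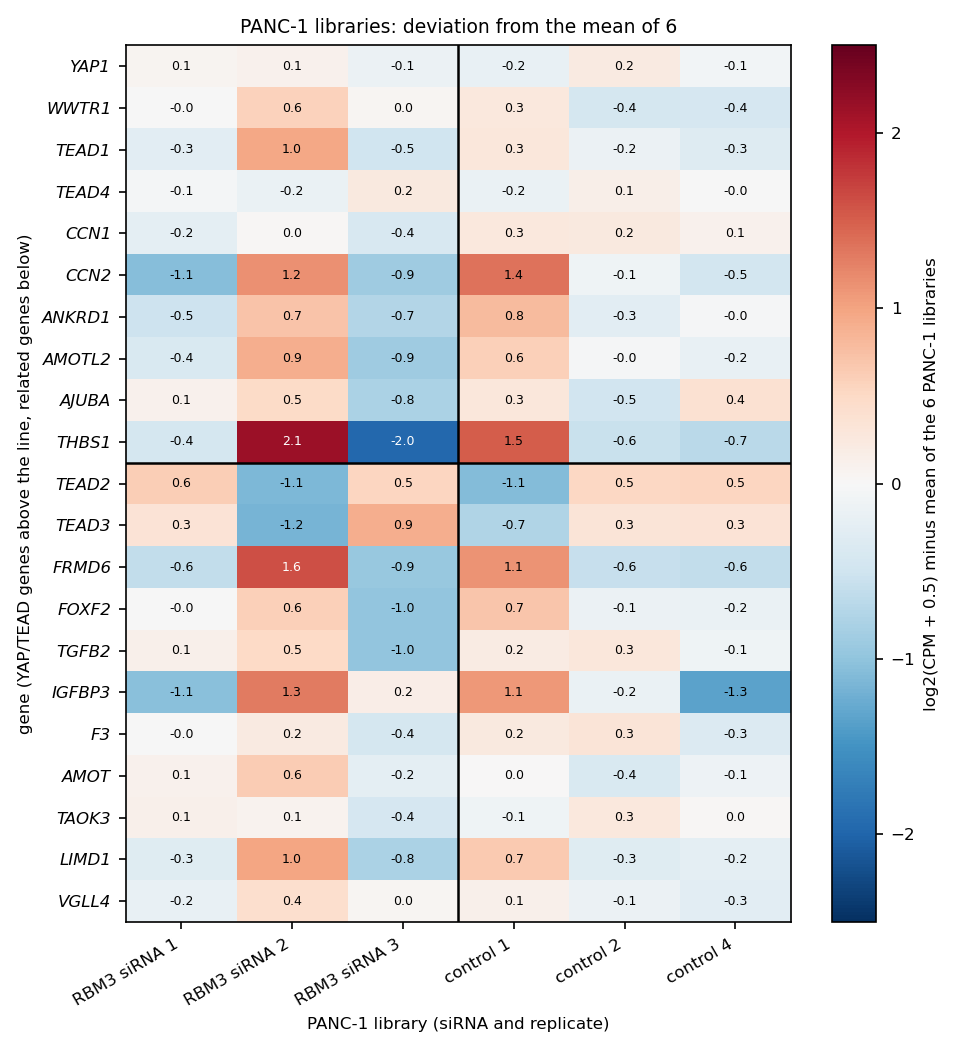
Each cell gives the log2(CPM + 0.5) of a gene in a PANC-1 library minus its mean over the 6 PANC-1 libraries, with RBM3 siRNA libraries left of control libraries and the 10 YAP/TEAD genes above the line. RBM3 siRNA replicate 2 and control replicate 1 share high values of TEAD1, CCN2, AMOTL2, THBS1 and FRMD6 and low values of TEAD2 and TEAD3.

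Other targets of the complex were counted in the same way. Of 18 further targets under control siRNA, 9 were called higher, 3 lower (LATS2, CCDC80 and NT5E) and 6 did not pass, beside 26% of all genes higher and 24.8% lower. Their median log2 fold change was 0.93, against 0.00 over all genes, and the difference was not tested. TGFB2, a secreted growth factor, was at 73.1, 77.3 and 58.7 CPM in PANC-1 control libraries, against 0.190, 0.262 and 0.0631 CPM in MIA PaCa-2 control libraries (log2 fold change 8.59, SE 0.61, edgeR adjusted p = 5.53e-07). FOXF2, a forkhead transcription factor of mesenchyme, had 2591 counts in PANC-1 and 0 in MIA PaCa-2, at least 1062-fold higher against a limit of 3 counts over the group. IGFBP3, which binds insulin-like growth factors, had 259 counts in PANC-1 and 2 in MIA PaCa-2, a pooled ratio of 159 (95% interval 43.6 to 1322). Of these, 190 counts were in PANC-1 control replicate 1 and both MIA PaCa-2 counts in control replicate 1; the edgeR log2 fold change of 7.07 was 6.08 without that PANC-1 library and 9.65 without that MIA PaCa-2 library. F3, the gene of tissue factor, was at 5.56, 5.90 and 3.55 CPM in PANC-1, against 0.619, 0.196 and 0.946 CPM in MIA PaCa-2 (log2 fold change 3.07, SE 0.55, edgeR adjusted p = 0.000739). With RBM3 siRNA 12 of these 18 were called higher in PANC-1 and 1 lower, beside 24.2% of all genes higher and 19.3% lower. These lists, like the 10 genes, were chosen with results of these data known.

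Of 20 Hippo regulators under control siRNA, 10 were called higher in PANC-1, 1 lower and 9 did not pass, beside 26% of all genes higher and 24.8% lower, so the share called in either direction was near the 50.8% of all genes. Their median log2 fold change was 0.61, against 0.00 over all genes, and the difference was not tested. The kinases at the core of the pathway did not lead: STK3, STK4 and LATS1 did not pass, and LATS2 was the gene called lower (log2 fold change -0.95, edgeR adjusted p = 0.00369). AMOT, the founding motin, had 361 counts in PANC-1 and 2 in MIA PaCa-2, a pooled ratio of 222 (95% interval 61.0 to 1839). Both MIA PaCa-2 counts were in control replicate 2, and the edgeR log2 fold change of 7.45 was 10.3 without it and 6.44 without MIA PaCa-2 control replicate 1. TAOK3, of the TAO kinases whose fly member activates the Hippo kinase, had a log2 fold change of 1.40 (SE 0.20, edgeR adjusted p = 0.00015), LIMD1, a relative of AJUBA, one of 1.68 (SE 0.39, edgeR adjusted p = 0.00367), and FRMD6, the human relative of the fly Expanded protein, one of 2.86 (SE 0.66, edgeR adjusted p = 0.00336). FRMD6 was at 119, 36.4 and 35.2 CPM in PANC-1 control libraries, so control replicate 1 was again apart, and without it the log2 fold change was 2.03. With RBM3 siRNA 11 were called higher in PANC-1, 1 lower and 8 did not pass, beside 24.2% of all genes higher and 19.3% lower. LATS2 and PTPN14 stand in both lists.

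A last list of 5 genes held the paralogues TEAD2 and TEAD3 and the genes VGLL1, VGLL3 and VGLL4. Of these 3 were tested and none was called under control siRNA: TEAD2, TEAD3 and VGLL4, a TEAD-binding repressor at a log2 fold change of 0.40 (edgeR adjusted p = 0.112). Their groups did not overlap under control siRNA, 1 higher and 2 lower in PANC-1, beside 61.5% of all genes without overlap. With RBM3 siRNA the groups of all 3 overlapped. VGLL1 and VGLL3 did not pass the filter. For RBM3 siRNA over control siRNA no gene of these lists was called in either line. The pair of PANC-1 libraries lay above the other 4 for 9 of the 18 further targets and 11 of the 20 Hippo regulators, beside 19.7% of all genes.

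Among 10081 genes at a mean of 10 CPM or more, those whose departures from the group means over the 12 libraries were most like those of CCN1 and CCN2 averaged were KDM6B (Pearson r = 0.978), KLHL21 (0.974), BRD2 (0.972), TRIB1 (0.966) and DOT1L (0.963). The libraries share a protocol but differ in depth. PANC-1 RBM3 siRNA replicate 2 and control replicate 1 set most of the range, so these values describe likeness only. KLHL21, for example, was at 41.6, 168 and 42.5 CPM in PANC-1 RBM3 siRNA libraries and at 142, 54.4 and 46.6 CPM in PANC-1 control libraries. The average itself followed CCN2 (r = 0.949) more closely than CCN1 (0.658). Of the other genes, AMOTL2 (r = 0.928), THBS1 (0.845), ANKRD1 (0.801) and TEAD1 (0.713) were most like it over the 12 libraries. AJUBA (0.474) and WWTR1 (0.411) were less like it, and YAP1 (-0.03) and TEAD4 (-0.36) were not. The order differed between the lines and from that over the 12 libraries. Over the 6 PANC-1 libraries r was 0.949 for AMOTL2, 0.942 for THBS1, 0.96 for ANKRD1, 0.962 for TEAD1 and -0.72 for TEAD4. Over the 6 MIA PaCa-2 libraries it was 0.848 for AMOTL2, -0.01 for THBS1, -0.81 for ANKRD1, -0.07 for TEAD1 and 0.83 for TEAD4. For WWTR1 and AJUBA r was 0.942 and 0.532 in PANC-1, and -0.72 and 0.467 in MIA PaCa-2. In MIA PaCa-2 THBS1 was at most 0.0752 CPM and ANKRD1 at most 0.0952 CPM, so their r there rests on almost no counts. CCN2, which is part of the average, was at most 0.757 CPM in that line, which limits every r there.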

How the data were processed

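The authors deposited raw read counts per Ensembl gene in 1 table of 12 libraries and 63677 genes, from paired reads of 75 bp made with a TruSeq v2 kit, per the labels' protocols. STAR 2.5.2a, Picard, featureCounts and Subread with build hg19/GRCh37 are named in the submitters' processing notes. Annotation release, strand setting and handling of duplicate reads: not given in the sources used here. Reads of overlapping genes therefore cannot be told apart. Symbols came from a gene name table that matched 52181 identifiers and named 39699.

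Counts were tested two-sided with glmQLFTest of edgeR 4.0.16 (R 4.3.3, limma 3.58.1) after TMM scaling, on the 17862 genes that filterByExpr kept (minimum count 10). One model held the means of the 4 groups, leaving 8 residual degrees of freedom. Benjamini-Hochberg adjustment ran over all genes, at 0.05. The SE is approximate, the size of the log2 fold change over the root of its F statistic. The model was tested on simulated data for RBM3 siRNA in PANC-1 alone. Those counts were drawn around group means with no library set apart, so the test does not cover such libraries. Pooled ratios carry exact 95% intervals for counting error only. Alternatives included DESeq2 1.42.0, limma-voom, other scalings and filters, a replicate block and the removal of libraries.

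Besides the 10 genes, the text names RBM3, COL1A2 and ALDH1A1, the 4 genes of smallest p in each list, and the 5 genes most like CCN1 and CCN2; others were named after their values were seen. The genes and lists were chosen with earlier results of these data known. Counts of replicates in a group differed beyond sampling noise (chi-square per degree of freedom from 11.7 to 184), and each was counted as its own sample.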

Additional observations from a re-analysis of the deposited data

How the results depend on the processing

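Of the 10 genes, 6 were called between the lines under control siRNA, and between 5 and 8 over the alternatives; with RBM3 siRNA the count was 8 and ran from 5 to 10. It was 5 without PANC-1 RBM3 siRNA replicate 2, and 5 with PANC-1 control replicate 1 and RBM3 siRNA replicate 2 both removed, a setting that, like DESeq2 without PANC-1 RBM3 siRNA replicate 3, was chosen after seeing the data. Leaving out each library in turn gave 5 to 7 genes under control siRNA and 5 to 9 with RBM3 siRNA. YAP1, TEAD4, CCN1, CCN2 and THBS1 were called in both contrasts under every alternative run. For RBM3 siRNA over control siRNA in either line, and for the difference between lines, the count was 0 under every alternative. Over all genes, DESeq2 called 3 in PANC-1 and 21 in MIA PaCa-2, edgeR 2 in MIA PaCa-2 but 0 in 10 of the 12 fits that leave out a library, limma-voom 1 in MIA PaCa-2, and edgeR without a filter 230 in PANC-1 and 107 for the difference between lines.

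Deviations of same-numbered replicates from their group means had r from -0.49 to 0.27. With 3 libraries a group and outlying PANC-1 libraries among them, these values cannot settle whether numbers pair libraries. With the number as a replicate block 6 and 8 genes were called between the lines and 0 in each siRNA comparison. PANC-1 RBM3 siRNA replicate 3 and MIA PaCa-2 RBM3 siRNA replicate 5 share their number with no other library. The block fits each of them exactly and so takes it out of every contrast. The block therefore cannot test a pairing of all libraries. Under the block the log2 fold change for RBM3 siRNA turned sign to -0.14 for WWTR1 and 0.030 for TEAD1 in MIA PaCa-2, and to -0.056 for TEAD4, 0.21 for AMOTL2 and 0.26 for AJUBA in PANC-1. These 3 PANC-1 values turned the same way without RBM3 siRNA replicate 3 alone, to -0.11, 0.23 and 0.19.

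No other sign change touched a call either, and the cause was not tested. WWTR1 between the lines under control siRNA was -0.038 with the pair of PANC-1 libraries removed. WWTR1 for RBM3 siRNA in MIA PaCa-2 was -1.16e-05 with DESeq2, -8.52e-05 with median-of-ratios factors, -0.0040 with library size alone, -0.0068 with the log2 total count as covariate and -0.0025 with DESeq2 without replicate 3. In PANC-1, YAP1 was -0.0063 with DESeq2 and -0.0064 with median-of-ratios factors. With the total count as covariate it was -0.057, TEAD1 -0.043, AJUBA 0.24 and THBS1 -1.23. With the pair removed YAP1 was -0.11, TEAD1 -0.14 and THBS1 -0.41. With DESeq2 without replicate 3, TEAD4 was -0.11, AMOTL2 0.24 and AJUBA 0.20, and with limma-voom THBS1 was -0.25.

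Leaving out each library in turn moved WWTR1 between the lines under control siRNA over a range of -0.041 to 0.54. For RBM3 siRNA in MIA PaCa-2 the ranges were -0.17 to 0.32 for WWTR1, -0.32 to 0.051 for TEAD1, -0.038 to 0.080 for TEAD4 and -0.36 to 0.24 for CCN2. In PANC-1 they were -0.069 to 0.15 for YAP1, -0.35 to 0.51 for TEAD1, -0.11 to 0.12 for TEAD4, -1.48 to 0.38 for CCN2, -2.50 to 0.22 for ANKRD1, -0.81 to 0.23 for AMOTL2, -0.48 to 0.19 for AJUBA and -1.54 to 1.47 for THBS1. The response of RBM3 itself, PANC-1 minus MIA PaCa-2, ranged from -0.065 to 0.66.

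Depth limits ANKRD1, with at most 33 counts in a PANC-1 library and 4 in a MIA PaCa-2 library, and, in MIA PaCa-2, THBS1 with 4 or fewer counts a group and CCN2 with 7 to 16 counts a library.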
